A study of Homo sapiens with 4 samples.

Results

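A set of 8 well-known long noncoding RNA (lncRNA) genes of epithelial cells was followed in MCF10A cells with a raised level of HSF1, out of 63856 genes in the count table. These 8 are NEAT1, MALAT1, H19, PVT1, KCNQ1OT1, MIR205HG, DIRC3 and HOTAIR. A group of 7 was chosen by name, while DIRC3 was taken because its level was already known to fall deeply in these libraries, so DIRC3 is described without a test. MCF10A is an established, non-tumorigenic line of human breast epithelium, and HSF1 is the transcription factor that drives heat shock protein genes under stress. The study compared wild type cells (WT, 2 libraries) with cells that stably overexpress HSF1 (HSF1-pLVX, 2 libraries) to find out how HSF1 acts in this line. Both variants were grown in the same medium with horse serum, insulin, hydrocortisone, EGF and cholera toxin, and total RNA was sequenced after removal of ribosomal RNA. The HSF1-pLVX cells had been transduced with a lentivirus that carries the human HSF1 coding sequence and had been selected with puromycin, whereas the WT cells were unmodified. Libraries of empty-vector cells were not analysed here, so HSF1 itself, the transduction and the selection cannot be told apart. The methods call the libraries biological replicates without saying how the cultures were separated, so the p-values measure the spread between these samples only.

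Long noncoding RNAs are transcripts that act without being translated, and many of them stay in the nucleus. Some build nuclear bodies, some silence neighbouring genes in cis, some guide chromatin enzymes, and some are mainly the precursors of small RNAs. NEAT1 is the architectural RNA of paraspeckles, and MALAT1, its neighbour on chromosome 11, resides in the splicing-factor-rich nuclear speckles. H19 and KCNQ1OT1 are imprinted RNAs of the short arm of chromosome 11, PVT1 lies next to the MYC oncogene, MIR205HG is the host gene of miR-205, a microRNA typical of basal epithelium, and HOTAIR is transcribed from the HOXC cluster.

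The libraries held between 18688109 and 24184285 counts. HSF1 was at 200.4 and 189.2 CPM (counts per 1000000 counts of the library, scaled by TMM factors) in the WT libraries and at 982.4 and 998.6 CPM in the HSF1-pLVX libraries, so the labels matched the variant (log2 fold change 2.35, SE 0.0954, adjusted p = 1.145e-10, edgeR quasi-likelihood test, p-values adjusted after Benjamini and Hochberg over all tested genes). Mitochondrial genes took 7.55 to 8.48% of the counts in WT and 9.84 to 11.0% in HSF1-pLVX libraries. All 12 markers of mammary epithelium were present, and their summed level was 26820 to 27714 CPM in WT and 12729 to 13253 CPM in HSF1-pLVX libraries, with TP63 and KRT5 higher and the other 10 lower. Of 8 fibroblast markers 4 had no library above 3 counts (among them COL1A2, COL3A1 and LUM), and the sum was 7.88 to 10.9 CPM in WT and 13.9 to 15.0 CPM in HSF1-pLVX libraries, with DCN higher. Of 5 blood markers 4 had no library above 3 counts, PTPRC held 0, and the sum was 0.107 to 0.484 CPM in WT and 0.159 to 0.201 CPM in HSF1-pLVX libraries. The 4 endothelial markers summed to 1.94 to 3.04 CPM in WT and 13.1 to 14.3 CPM in HSF1-pLVX libraries, where KDR alone passed the filter on low counts and was higher. The part of these markers in the changes described below was not tested. In bulk libraries fewer cells that express an RNA and less of it per cell cannot be told apart.

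The RNA with the strongest tested change, MIR205HG, carries the precursor of miR-205 near its 3′ end, and both mature arms are shown because the arms and the counted exons of the host gene overlap only in part. The sequences are from RefSeq (GRCh38.p14, chromosome 1, + strand), 5′ to 3′, with the seed (bases 2 to 8) in capitals for the arms and with both arms in capitals for the hairpin. The 5p arm lies at chr1:209432166-209432187, the 3p arm at chr1:209432203-209432223 and the hairpin of 110 bases at chr1:209432133-209432242.
hsa-miR-205-5p: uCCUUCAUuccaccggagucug
hsa-miR-205-3p: gAUUUCAGuggagugaaguuc
MIR205 hairpin: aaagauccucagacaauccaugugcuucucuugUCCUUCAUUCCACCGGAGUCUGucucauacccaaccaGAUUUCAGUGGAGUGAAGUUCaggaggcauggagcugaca
The last 39 bases of the hairpin, which include 20 of the 21 bases of the 3p arm, lie in counted exons of MIR205HG, and the 5p arm lies outside them. The arms have different seeds.

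The promoter windows of these lncRNA genes were searched for short, 2-unit parts of a heat shock element, since HSF1 is the factor that was raised. This element is the inverted repeat that HSF1 binds. The RefSeq table (GRCh38.p14, 250 bases before to 50 bases after a gene's start) matched 4 of the 8 genes with 7 windows, and 3 windows are shown: MIR205HG and MALAT1, which rose, and the outermost RefSeq start of DIRC3. For NEAT1, PVT1, KCNQ1OT1 and HOTAIR no window is shown. The MIR205HG window is chr1:209428570-209428869 (+), the MALAT1 window chr11:65497488-65497787 (+) and the DIRC3 window chr2:217790394-217790693 (-). Capitals mark GAANNTTC or TTCNNGAA, which hold 2 units (GAA or TTC) and each read the same on both strands.
MIR205HG promoter: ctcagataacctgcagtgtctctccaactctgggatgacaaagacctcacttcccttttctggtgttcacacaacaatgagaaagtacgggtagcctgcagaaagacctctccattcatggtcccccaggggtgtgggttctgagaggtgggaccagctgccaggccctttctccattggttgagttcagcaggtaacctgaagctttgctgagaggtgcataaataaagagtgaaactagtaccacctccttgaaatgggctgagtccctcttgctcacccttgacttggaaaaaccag
MALAT1 promoter: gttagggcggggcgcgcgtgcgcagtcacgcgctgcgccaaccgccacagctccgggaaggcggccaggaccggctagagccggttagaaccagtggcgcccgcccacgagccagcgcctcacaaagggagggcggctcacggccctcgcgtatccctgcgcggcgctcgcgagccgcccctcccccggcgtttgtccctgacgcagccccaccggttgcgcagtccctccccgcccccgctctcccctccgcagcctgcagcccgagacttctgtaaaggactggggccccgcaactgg
DIRC3 promoter: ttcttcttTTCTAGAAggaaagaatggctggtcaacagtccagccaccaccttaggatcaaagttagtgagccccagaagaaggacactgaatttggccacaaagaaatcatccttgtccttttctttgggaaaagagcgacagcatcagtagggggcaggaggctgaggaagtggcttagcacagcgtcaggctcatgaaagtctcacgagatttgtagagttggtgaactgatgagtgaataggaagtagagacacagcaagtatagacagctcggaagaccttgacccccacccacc
Among the 7 reported windows TTCNNGAA was found once, in the outermost DIRC3 window, from position -242 relative to the start. This start lies outside the counted DIRC3 gene, whose outer end is at 217756593, and the 2 windows at the counted end hold no match. Neither form was found in the MIR205HG window, in both MALAT1 windows or in the H19 window. Of all 35116 windows in the table, 6.77% hold GAANNTTC, 7.74% hold TTCNNGAA and 13.5% hold either form. A longer form of 3 alternating units is held by 0.49% of the windows, and the DIRC3 match is not part of one. A match is only a match of letters, and its absence says only that these letters are not in the window.

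Of the 7 lncRNAs chosen by name, 6 passed the filter on low counts and were tested, and H19 did not. Of these, 4 rose (MIR205HG, PVT1, NEAT1 and MALAT1), KCNQ1OT1 was called lower by a small margin, and HOTAIR was not called. Among all 15830 tested genes 65.9% were called, with 32.7% higher and 33.2% lower, so a call of a single gene is common in this comparison and 5 calls among 6 genes are not set apart from it. Among the 1586 tested lncRNA genes 47.7% were called, with 28.5% higher and 19.2% lower, and their median log2 fold change was 0.24 against 0.02 for all tested genes. With 2 libraries against 2, an exact two-sided permutation test of a single gene cannot go below p = 0.33, so each p-value below comes from the fit across all genes.

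**Figure D1:**
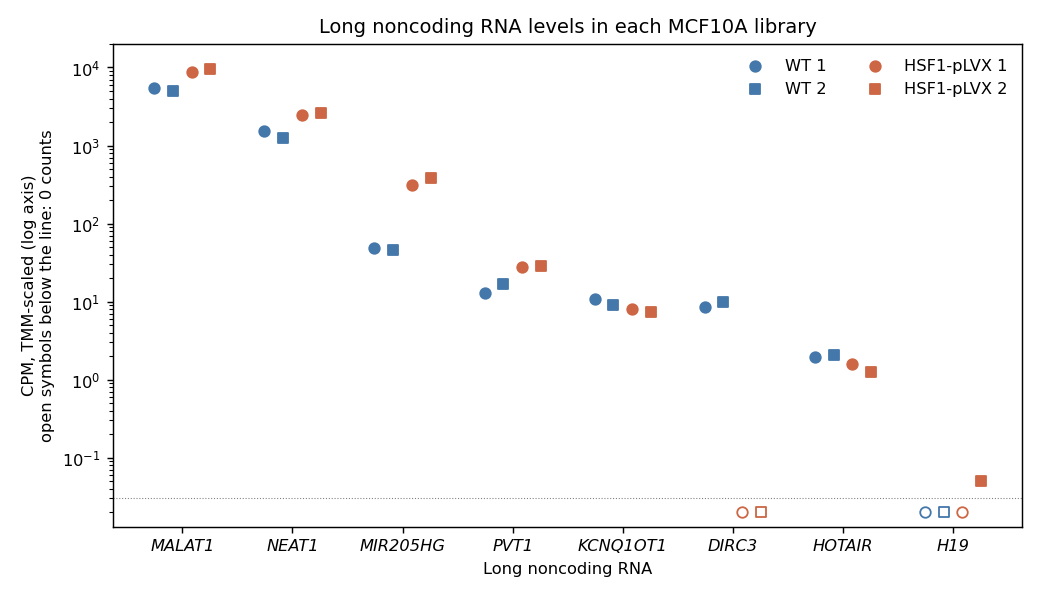
Levels of the 8 lncRNAs in each library as TMM-scaled CPM on a log axis, with blue for WT, orange for HSF1-pLVX, circles for replicate 1 and squares for replicate 2, and open symbols below the dotted line for 0 counts. MIR205HG shows the widest gap between the groups among the RNAs measured in every library (46.3 and 48.0 CPM against 315.1 and 387.8 CPM), and DIRC3 is at 0 counts in both HSF1-pLVX libraries.

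The lncRNAs of nuclear bodies were the most abundant. MALAT1 (ENSG00000251562.7, hg38 chromosome 11, 65497762 to 65506516, + strand, a single exon block of 8755 bases), which is known as a regulator of splicing and of metastasis-related genes, had 5489 and 5063 CPM in the WT libraries and 8677 and 9526 CPM in the HSF1-pLVX libraries. Both HSF1-pLVX libraries were above both WT libraries, and the means were 5276 ± 301 and 9101 ± 601 CPM (SD, n = 2 each). MALAT1 rose 1.73-fold (log2 fold change 0.79, SE 0.122, 95% interval 0.52 to 1.05, edgeR quasi-likelihood test, Benjamini-Hochberg adjusted p = 5.72e-05). It took 0.528 and 0.503% of all counts in WT and 0.901 and 0.953% in HSF1-pLVX libraries. Among all genes it ranked 13 and 15 by counts in WT and 5 in both HSF1-pLVX libraries. The exact binomial (Clopper-Pearson) 95% intervals of these shares, which cover counting error only, were 0.525 to 0.531% for WT replicate 1 and 0.949 to 0.958% for HSF1-pLVX replicate 2.

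NEAT1 (ENSG00000245532.7, chromosome 11, 65422774 to 65445540, + strand, a single exon block of 22767 bases) had 1536 and 1235 CPM in WT and 2476 and 2630 CPM in HSF1-pLVX libraries, again with no overlap. The means were 1385 ± 213 and 2553 ± 110 CPM (SD, n = 2 each). NEAT1 rose 1.84-fold (log2 fold change 0.88, SE 0.121, 95% interval 0.62 to 1.14, adjusted p = 1.8e-05, edgeR quasi-likelihood test). The short and the long isoform of NEAT1, of which only the long one builds paraspeckles, share their 5′ part and one row of the table, so they were not separated here. Larger changes than those of NEAT1 and MALAT1 were seen for 34.2 and 38.7% of all tested genes.

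NEAT1 and MALAT1 moved in parallel. Per kilobase of exon, MALAT1 was 9.29 and 10.7 times as abundant as NEAT1 in WT and 9.11 and 9.42 times in HSF1-pLVX libraries. Together they took 0.676 and 0.626% of all counts in WT and 1.16 and 1.22% in HSF1-pLVX libraries, which is 55.3 and 50.8% of the counts of lncRNA genes in WT and 61.8 and 63.3% in HSF1-pLVX libraries. The remaining lncRNA genes took 0.548 and 0.607% of all counts in WT and 0.715 and 0.705% in HSF1-pLVX libraries. The share of mitochondrial counts moved the same way, as given above, and its part in the change was not tested. Small genes that lie within the exons of NEAT1 (MIR612 and 3 others) and MALAT1 (3 genes, 1 of them on the opposite strand over 396 bases) had 0 counts in all 4 libraries.

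**Figure D2:**
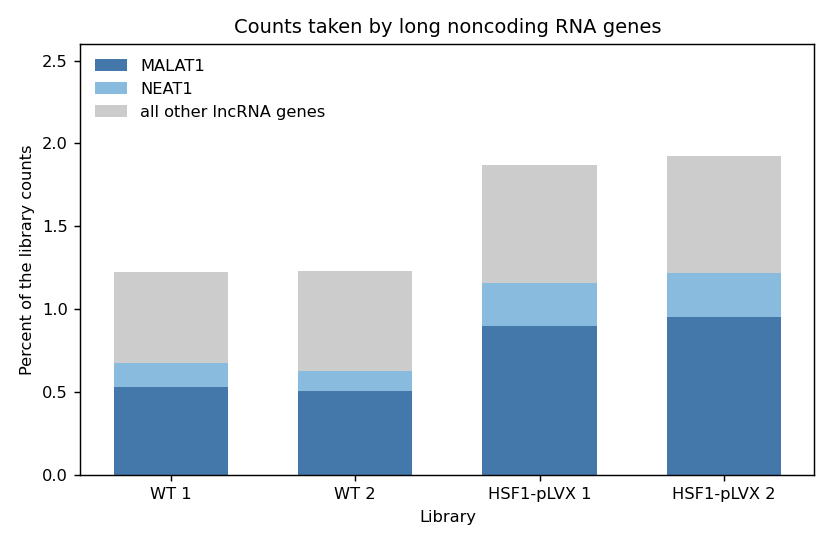
Percent of each library's counts that fell on MALAT1, NEAT1 and all other lncRNA genes, as stacked bars from 0. All 3 parts are larger in both HSF1-pLVX libraries, and MALAT1 makes up the largest part in HSF1-pLVX libraries (0.901 and 0.953%).

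More genes for proteins that assemble on NEAT1 or share the speckles with MALAT1 rose than fell. Of 25 tested genes for paraspeckle proteins, 15 rose, 2 fell and 8 were not called (68% called, near the 65.9% of all genes, median log2 fold change 0.34). SFPQ, which is essential for paraspeckles, went from 196.1 and 203.7 CPM to 344 and 336.4 CPM (log2 fold change 0.77, SE 0.0886), and its partner NONO from 241.6 and 237.6 CPM to 381 and 398.8 CPM (0.70, SE 0.0897). The largest rises were HNRNPA1 (1.95, SE 0.0982), a splicing repressor whose many processed pseudogenes make its count uncertain, and RBMX (1.26, SE 0.0887). In contrast, PSPC1, the third paraspeckle protein of the SFPQ family, was at -0.22 (SE 0.0882, adjusted p = 0.0367) and AHDC1 at -0.94 (SE 0.0863), and RBM14, another essential component, was at -0.09 (SE 0.0968, adjusted p = 0.429). The adjusted p-values are those of edgeR's quasi-likelihood test, and the genes lower in this list numbered 1 with library-size or upper quartile scaling.

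Of 28 listed paraspeckle genes, TAF15 and HNRNPR have copies on alternate contigs that took reads, so their rows are uncertain. Of 20 tested genes of nuclear speckles and MALAT1 processing, 16 rose, 1 fell and 3 were not called (85% called against 65.9% of all genes, where 32.7% were higher and 33.2% lower, a description with no test; median log2 fold change 0.53), and none reached a 2-fold change. SRSF1, a splicing factor bound by MALAT1, rose from 116.1 and 115.1 CPM to 157.8 and 154.4 CPM (0.43, SE 0.0843), and METTL16, which binds the triple helix at the 3′ end of MALAT1, from 37.9 and 36.3 CPM to 52.4 and 48.4 CPM (0.44, SE 0.0884). The largest rises were U2AF1 (0.95, SE 0.203), which has a near-identical copy that can split its reads, and the splicing kinase CLK1 (0.90, SE 0.144). SON, a scaffold of the speckles, was at -0.26 (SE 0.0981, adjusted p = 0.0289, edgeR's quasi-likelihood test), and with library-size or upper quartile scaling the genes lower in this list numbered 0. TALAM1, the antisense transcript of MALAT1, was not analysed here.

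MIR205HG (ENSG00000230937.11, chromosome 1, 209428820 to 209432838, + strand, 3 exon blocks of 3518 bases) had 901 and 861 counts in WT and 7910 and 7705 counts in HSF1-pLVX libraries. This is 48.0 and 46.3 CPM against 315.1 and 387.8 CPM, with means of 47.2 ± 1.17 and 352 ± 51.5 CPM (SD, n = 2 each). MIR205HG rose 7.45-fold (log2 fold change 2.90, SE 0.108, 95% interval 2.67 to 3.13, adjusted p = 5.45e-11, edgeR quasi-likelihood test), and 4.12% of all tested genes had a larger change in either direction. It stood at rank 247 of 15830 by log2 fold change from the highest, and its level per kilobase moved from rank 3142 to rank 353.

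The row of the miR-205 precursor itself, MIR205, held 10 and 10 counts in WT and 93 and 102 counts in HSF1-pLVX libraries (log2 fold change 3.02, SE 0.363, adjusted p = 1.264e-06, edgeR quasi-likelihood test). These libraries were not made for small RNAs, so the row reports fragments of the primary transcript over the 110 bases shown above, and the mature miR-205 was not measured. TP63, which encodes the basal epithelial transcription factor p63, a known activator of miR-205, rose from 10.4 and 8.99 CPM to 105.8 and 109.9 CPM (3.48, SE 0.104). Thus the host gene, the precursor and TP63 were each higher in both HSF1-pLVX libraries.

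The list of the MIR205HG locus, its regulator and reported miR-205 targets, which also holds CDH1, had 22 tested genes. Of these, 10 rose, 6 fell, CDH1 among them, and 6 were not called (72.7% called, median log2 fold change 0.27). In the locus, G0S2, an inhibitor of lipolysis, rose most (3.89, SE 0.109), and LAMB3, a laminin chain of the basement membrane, fell (-0.81, SE 0.110). HMGB3 fell most, from 166.5 and 180.3 CPM to 27.3 and 24.9 CPM (-2.73, SE 0.0924), followed by the receptor gene ERBB3, from 140.3 and 140.4 CPM to 41.5 and 35.5 CPM (-1.86, SE 0.0926).

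Neither of the classical miR-205 targets that repress E-cadherin was called lower. ZEB1 had 0.799 and 1.40 CPM in WT and 1.47 and 1.81 CPM in HSF1-pLVX libraries (0.57, SE 0.336, adjusted p = 0.147, edgeR quasi-likelihood test) and was not called. ZEB2 rose from 7 and 3 counts to 51 and 52 counts (3.08, SE 0.493). Both stayed at low levels of at most 2.62 CPM. CDH1, which encodes E-cadherin and is named after its values were seen, fell from 845.7 and 862.6 CPM to 333.1 and 302.3 CPM (-1.43, SE 0.0972). The part of ZEB1, ZEB2 and miR-205 in this fall was not tested.

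For the reported targets, the longest 3′ UTR of each gene (GENCODE 44) was searched for ATGAAGG, the complement of the 5p seed, on the transcribed strand. It was present in 9 of 13 targets and in 12.6% of the 19219 genes searched. Reports of miR-205 targets can rest on this very match, so the higher share among the targets is not a finding. Of the 9 with the letters, 3 rose, 4 fell, 1 was not called and 1 was not tested. Of the 4 without them, ZEB2 included, 3 rose and 1 was not called. Among all tested genes 32.7% were higher and 33.2% were lower. These groups of targets are small, and a difference between them was not tested. Only this form of the match was searched, so the genes without it can still hold sites of other forms. The sites of the named genes are shown 5′ to 3′ (hg38, all + strand), with the seed match in capitals: ZEB1 at chr10:31528066-31528089, ERBB3 at chr12:56102326-56102349, and HMGB3 at chrX:150988890-150988913 and chrX:150989645-150989668.
ZEB1 site: gaatatgtggtaacatATGAAGGa
ERBB3 site: aggcactcctggagatATGAAGGa
HMGB3 first site: ctcacttagggctgagATGAAGGa
HMGB3 other site: attactgtccgtagcaATGAAGGa
The letters alone do not show that a site is used.

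PVT1 (ENSG00000249859.9, chromosome 8, 127794533 to 128101253, + strand, 21 exon blocks of 5493 bases) is co-amplified with MYC in many tumours and competes with MYC for shared enhancers. It had 12.8 and 16.9 CPM in WT and 27.7 and 28.5 CPM in HSF1-pLVX libraries. The groups did not overlap, with means of 14.8 ± 2.91 and 28.1 ± 0.606 CPM (SD, n = 2 each), and PVT1 rose 1.89-fold (log2 fold change 0.92, SE 0.125, 95% interval 0.65 to 1.19, adjusted p = 1.42e-05, edgeR quasi-likelihood test). MYC, which lies upstream of PVT1 (at -53.1 kb), rose as well, from 80.5 and 89.9 CPM to 535.8 and 523.6 CPM (2.64, SE 0.0950). Of 6 tested genes of the locus, MYC alone rose, 2 fell (PCAT1, named after its values were seen, and GSDMC, the latter at -0.27, SE 0.0979) and 3 were not called, with a median of -0.17. With upper quartile scaling 2 rose and 1 fell, and with library-size scaling 1 rose and 1 fell.

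The imprinted RNAs were low or not detected. H19 (ENSG00000130600.17, chromosome 11, 1995163 to 2001470, - strand, 4 exon blocks of 2825 bases), an abundant fetal RNA, had 0, 0, 0 and 1 counts and did not pass the filter. A count of 0 allows up to 0.16 CPM in WT replicate 1 and 0.119 CPM in HSF1-pLVX replicate 1 (3 counts, counting error only), so no difference of H19 was detectable at this depth. MIR675, which is processed from H19, held 0 counts in all 4 libraries, and IGF2, the paternally expressed partner gene, held 5, 5, 4 and 2 counts. H19 and its partner were thus near or below detection in both variants.

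Genes around H19 were expressed and changed in both directions. TNNI2, a fast skeletal troponin gene, went from 13.2 and 16.4 CPM to 169 and 181.4 CPM (3.57, SE 0.109), and SYT8, a synaptotagmin gene, from 55.1 and 50.8 CPM to 415.7 and 470.1 CPM (3.06, SE 0.0990). LSP1 and MRPL23, named here after their values were seen, rose as well (2.34, SE 0.3498, and 0.95, SE 0.115), and both lie within 200 kb of H19, as do TNNI2 and SYT8. Of the 13 tested genes within 500 kb of H19, 6 were higher, 4 were not called and 3 were lower (MOB2, CD81 and TSSC4, listed after their values were seen), so 69.2% were called against 65.9% of all genes. In the list of the H19 locus and imprinted genes, DCN, an imprinted gene in mouse that is also a fibroblast marker, rose from 1 and 3 counts to 94 and 87 counts, and 10 of 19 rose, 3 fell and 6 were not called (68.4% called, median 0.33), and 13 rose with library-size or upper quartile scaling. IGF2R, the receptor that clears IGF2, fell (-0.996, SE 0.0914), as did SNRPN (-0.83, SE 0.144). IGF2BP2, whose protein family binds IGF2 and H19 RNA, rose (0.40, SE 0.0867), whereas IGF2BP3 was at 0.22 (SE 0.105, adjusted p = 0.0839) and CTCF, the insulator protein of the H19 imprinting control region, at -0.14 (SE 0.0832, adjusted p = 0.164, edgeR quasi-likelihood test for both).

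KCNQ1OT1 (ENSG00000269821.1, chromosome 11, 2608328 to 2699994, - strand, a single exon block of 91667 bases), the antisense RNA that silences its imprinted domain in cis, had 204 and 167 counts in WT and 200 and 145 counts in HSF1-pLVX libraries. This is 10.9 and 8.99 CPM against 7.97 and 7.30 CPM, with no overlap but a gap between the nearest libraries that is smaller than the spread within WT. The log2 fold change was -0.38 (SE 0.150, 95% interval -0.70 to -0.05, adjusted p = 0.0389, edgeR quasi-likelihood test), which is just past the threshold of 0.05. The call was lost with library-size scaling (adjusted p = 0.0946), upper quartile scaling (0.101) and DESeq2 (0.195), and when WT replicate 1 (-0.22, adjusted p = 0.322), HSF1-pLVX replicate 1 (-0.44, 0.0666) or HSF1-pLVX replicate 2 (-0.31, 0.236) was left out. KCNQ1, in whose introns KCNQ1OT1 lies on the opposite strand, held 0, 0, 1 and 1 counts, and how the counting treated strand is not given in the sources used here, so reads of the opposite strands cannot be told apart.

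The genes that KCNQ1OT1 is known to silence were barely expressed. CDKN1C, a cell cycle inhibitor, held 1, 6, 5 and 2 counts, and PHLDA2, a growth-restraining placental gene, held 0, 0, 1 and 0 counts. SLC22A18, a transporter gene, fell from 6.34 and 5.60 CPM to 3.23 and 3.47 CPM (-0.84, SE 0.195). These 3 genes have a copy with matching exons on an alternate contig of the table (2, 3, 0 and 2 counts for PHLDA2, and 99, 58, 76 and 39 for SLC22A18), which can take or remove their reads, so their values are uncertain. No such copy was found for the 8 lncRNAs. The search matched exon lengths and needed at least 2 exons. It therefore cannot tell whether a gene of a single exon, such as KCNQ1OT1, has a copy. In all, 2 of 7 tested genes of the domain list rose, 4 fell and 1 was not called (85.7% called against 65.9% of all genes, median -0.33). DNMT1, 1 of the 2 that rose, lies on chromosome 19, outside the domain. NAP1L4, called lower, and CARS1, not called, are also tested genes of the list with a contig copy, so their values are uncertain too. TSSC4 fell (-0.62, SE 0.0837), OSBPL5 rose (0.79, SE 0.101), and DNMT1, the maintenance DNA methyltransferase that preserves imprints, rose from 61.3 and 53.7 CPM to 135.8 and 136.3 CPM (1.24, SE 0.0901).

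DIRC3 (ENSG00000231672.6, chromosome 2, 217284019 to 217756593, - strand, 17 exon blocks of 4665 bases), named for its disruption in a familial renal carcinoma, had 159 and 186 counts in WT and 0 in both HSF1-pLVX libraries. This is 8.47 and 10.01 CPM against 0, at least 68.3-fold lower when 3 counts per library are set for a count of 0, and at least 61.2- to 77.3-fold lower with each library left out. DIRC3 passed the filter on low counts through WT alone, and its fall chose it, so neither is a finding. In the authors' normalized log2-like values, DIRC3 stands at 7.59 and 7.78 in WT and at the floor of the table, 3.118, in both HSF1-pLVX libraries.

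Of the 3 tested genes within 500 kb of DIRC3, 1 was higher and 2 were not called. IGFBP2, an IGF-binding protein gene, lies outside this window, at 216632828 to 216664436 on chromosome 2. It rose from 4.10 and 3.55 CPM to 24.1 and 38.9 CPM (log2 fold change 3.03, SE 0.227). IGFBP5, the neighbour that DIRC3 was found to regulate in melanoma, held 1, 0, 4 and 2 counts and was not tested. TNS1, the nearest tested gene 43.2 kb away, rose (0.62, SE 0.234, adjusted p = 0.0306, edgeR quasi-likelihood test), with 4.64 and 3.45 CPM in WT and 7.45 and 4.83 CPM in HSF1-pLVX libraries, so its groups lay close together. Of 8 tested genes in the list of DIRC3 neighbours and the IGFBP5 axis, 4 rose, 1 fell and 3 were not called (62.5% called, median 0.29). SMAD3, a transducer of TGF-beta, rose (0.98, SE 0.0883), and XRCC5, a DNA repair gene, was at -0.23 (SE 0.0918), a call that was lost with library-size or upper quartile scaling.

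HOTAIR (ENSG00000228630.5, chromosome 12, 53962308 to 53974956, - strand, 8 exon blocks of 2602 bases), which is raised in metastatic breast cancer and is known for recruiting PRC2 to the HOXD cluster, was low. It had 37 and 38 counts in WT and 40 and 25 counts in HSF1-pLVX libraries, that is 1.97 and 2.05 CPM against 1.59 and 1.26 CPM. The groups did not overlap, but the log2 fold change of -0.48 (SE 0.281, 95% interval -1.08 to 0.12, adjusted p = 0.145, edgeR quasi-likelihood test) was not called, and the interval does not exclude a 2-fold fall. HOXC11, which overlaps the span of HOTAIR on the opposite strand without shared exon bases, fell (-1.19, SE 0.224), as did HOXC9 (-1.33, SE 0.169) and HOXC13 (-1.27, SE 0.137). Other tested HOXC genes, named after their values were seen, did not all fall. HOXC8 was lower (-0.75, SE 0.220), and HOXC6 (-0.27), HOXC4 (0.66) and HOXC13-AS (0.08) were not called. HOXC-AS1 was higher (1.30, SE 0.423), with 8 and 12 counts in WT and 25 and 34 counts in HSF1-pLVX libraries. HOXC10 held 4, 3, 6 and 1 counts.

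Of 10 listed genes of PRC2 and the LSD1, CoREST and REST partners of HOTAIR, grouped after their values were seen, 5 rose, 1 fell (REST, -0.75, SE 0.0946) and 4 were not called, while 32.7% of all tested genes were higher. EZH2, the catalytic subunit of PRC2, rose from 10.3 and 11.5 CPM to 30.4 and 27.4 CPM (1.41, SE 0.115), and SUZ12, another core subunit, from 22.4 and 25.8 CPM to 33.5 and 28.4 CPM (0.36, SE 0.110). CBX5, a heterochromatin protein gene near the HOXC cluster, rose as well (0.82, SE 0.121). All 9 HOXD genes of the list, HOXD10 included, held 0 counts in all 4 libraries, so no HOXD difference was detectable at this depth. Of 20 tested genes in the HOTAIR list, 7 rose, 6 fell and 7 were not called (65% called, median -0.03), and the sign of this median turned with library-size (0.03) and upper quartile scaling (0.06).

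**Figure D3:**
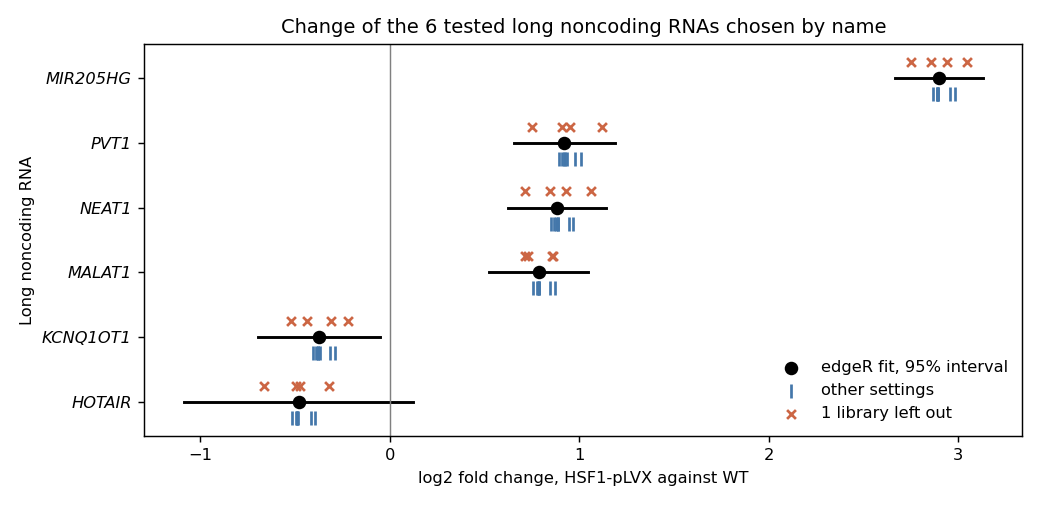
Log2 fold change of HSF1-pLVX against WT for the 6 tested lncRNAs chosen by name, as black points with 95% intervals from the edgeR fit, blue ticks for other settings and orange crosses for fits with 1 library left out. MIR205HG, PVT1, NEAT1 and MALAT1 stay above 0 throughout, KCNQ1OT1 stays below 0 with an interval that ends at -0.05, and the interval of HOTAIR crosses 0.

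By RPKM, the TMM-scaled CPM per kilobase of counted exon, the order of the 8 RNAs in WT cells was MALAT1 (603 ± 34.4), NEAT1 (60.9 ± 9.36), MIR205HG (13.4 ± 0.333), PVT1 (2.70 ± 0.530), DIRC3 (1.98 ± 0.234), HOTAIR (0.772 ± 0.0202), KCNQ1OT1 (0.108 ± 0.0145) and H19 (0), each as mean ± SD of 2 libraries. PVT1 and DIRC3 did not differ beyond their spread, with 2.33 and 3.08 RPKM against 1.82 and 2.15 RPKM, and the other neighbours in this order stood further apart than their libraries did. In HSF1-pLVX cells MIR205HG (89.6 and 110.2 RPKM) reached the range of NEAT1 (108.7 and 115.5 RPKM) and overlapped it, while DIRC3 dropped to 0. HOTAIR (0.548 ± 0.0910 RPKM) remained above KCNQ1OT1 (0.0833 ± 0.00515 RPKM), whose counts are spread over a very long exon.

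Genes with the most similar profile over the 4 libraries were sought among tested genes within 2-fold of the mean CPM of each RNA. The smallest Euclidean distances between mean-centred log2 CPM values were those of PABPC1 (0.133) and SRRM2 (0.184) to NEAT1, of MT-CO3 (0.194) and MT-ND2 (0.196) to MALAT1, of ANGEL2 (0.0708) and PAXBP1 (0.0712) to PVT1, and of DDIT4 (0.171) and SYT8 (0.199) to MIR205HG. For KCNQ1OT1 they were DISP2 (0.0345) and IRS1 (0.0828), and for HOTAIR they were RAB3A (0.0519) and ZNF460 (0.0635). Only 82 genes were compared for NEAT1 and 19 for MALAT1, which stand near the top of the range.

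Of 111 tested genes within 500 kb of any of the 8 lncRNAs, 35 were higher and 39 were lower, so 66.7% were called against 65.9% of all genes. Around NEAT1 and MALAT1, whose windows overlap, 12 of 48 and 14 of 49 genes were higher and 25 were lower in each. The closest tested neighbour of NEAT1, FRMD8, which was singled out after its values were seen, rose from 63.5 and 59.9 CPM to 215.9 and 230.2 CPM (1.85, SE 0.0890). Around PVT1, MIR205HG and DIRC3 few genes were tested (4, 11 and 3), of which 1, 3 and 1 were higher.

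**Figure D4:**
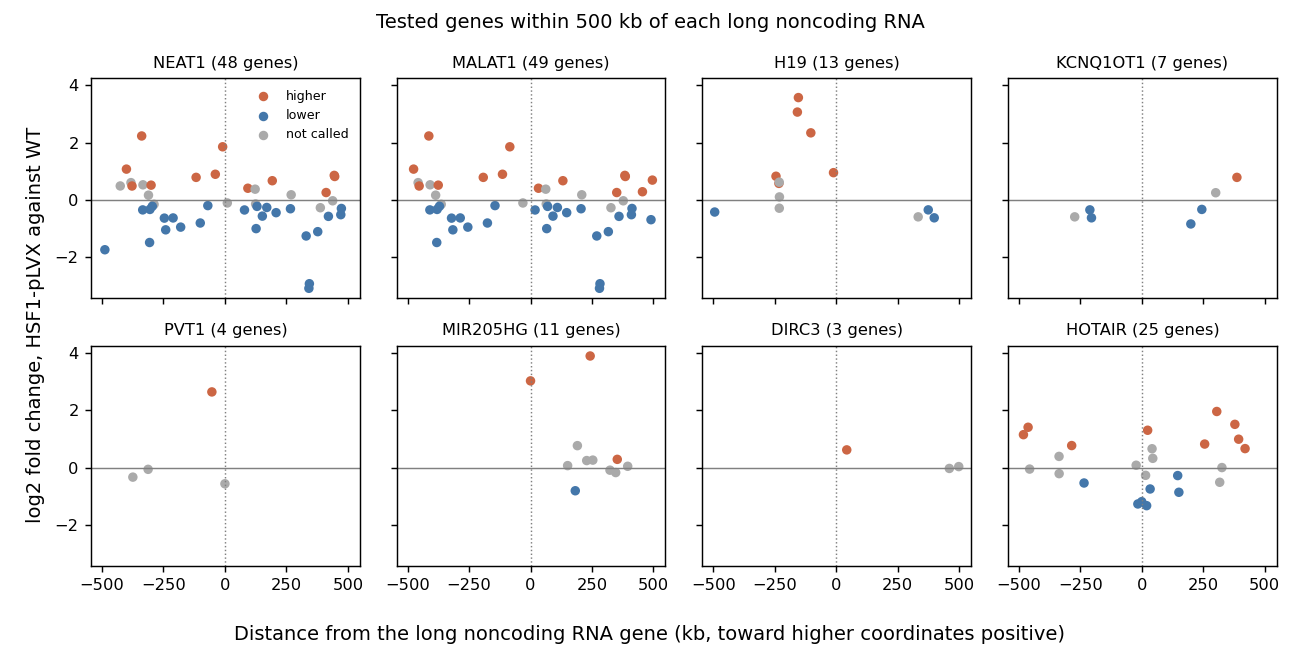
Log2 fold change of each tested gene within 500 kb of an lncRNA gene against its distance in kb from the gene's edge, with orange for higher, blue for lower and grey for not called. Called genes on both sides of 0 occur around NEAT1, MALAT1, HOTAIR and H19 (6 higher and 3 lower of 13 for H19).

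Among other known lncRNAs, a list of 104 names of which 92 were in the table as noncoding genes, 52 were tested, 31 rose, 8 fell and 13 were not called. The list had 75% called and a median log2 fold change of 0.84, against 65.9% and 0.02 for all tested genes. For all tested lncRNA genes these values were 47.7% and 0.24. The comparison is a description and not a test. With a 2-fold change added, 22 of the 52 were higher and 5 of the 52 were lower. Of all 1586 tested lncRNA genes, 321 (20.2%) were higher and 233 (14.7%) were lower by this rule. Among called genes with at least 50 counts in each library of the higher group, the largest rises were those of the snoRNA host genes SNHG7 (10.6 and 12.3 CPM to 58.7 and 75.2 CPM, log2 fold change 2.55, SE 0.131) and SNHG8 (19.8 and 17.4 CPM to 71.3 and 87.6 CPM, 2.09, SE 0.113), followed by DLEU1 (1.94, SE 0.330) and EPB41L4A-AS1 (1.88, SE 0.142). When grouped after their values were seen, 10 of 11 SNHG genes of the list rose, by 0.74 to 2.55 on the log2 scale, and SNHG12 was at -0.23 (SE 0.118). Under the same limit of 50 counts, the deepest falls were those of NKILA (-2.51, SE 0.423), an inhibitor of NF-kappaB signalling, UCA1 (71.8 and 56.0 CPM to 22.2 and 13.2 CPM, -1.84, SE 0.174), PRR34-AS1 (-1.08, SE 0.162) and CYTOR (-1.02, SE 0.132). Below that limit, LINC01315 was at 2.73 and CASC2 at 2.05, both called higher, and PCAT1 was at -1.56 and called lower.

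**Figure D5:**
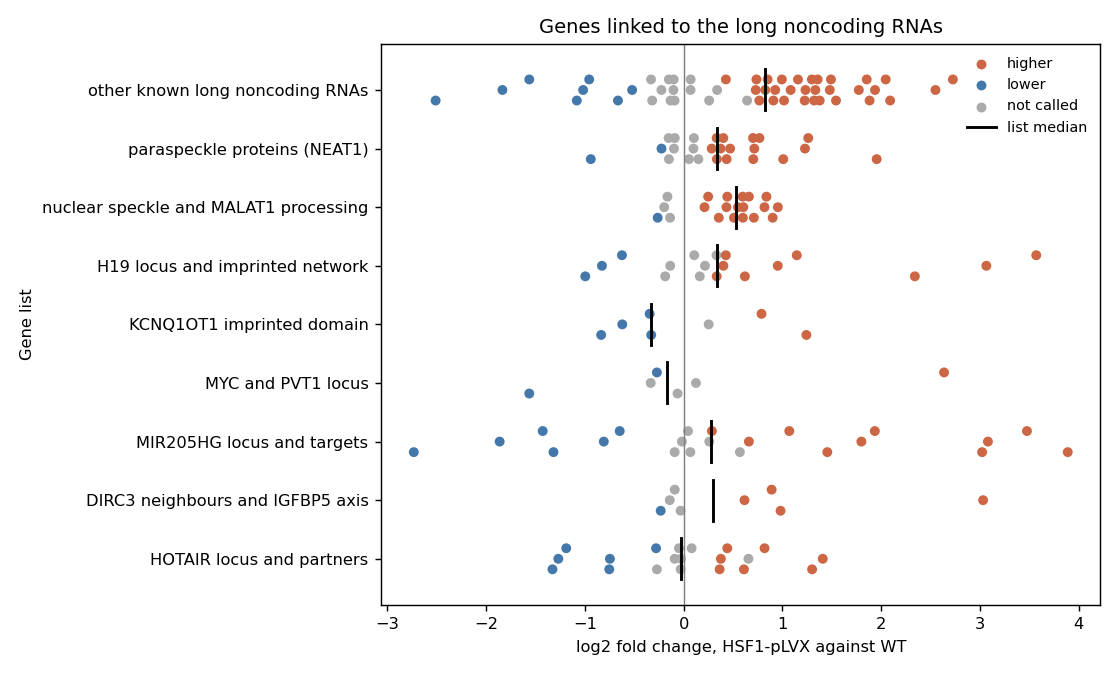
Log2 fold change of the tested genes in each list, with orange for higher, blue for lower and grey for not called. MIR17HG and DCN, at 3 counts or fewer in both WT libraries, are not drawn. A black bar marks the median of the drawn genes of each list. The other known lncRNAs (median 0.84 with MIR17HG included) and the nuclear speckle genes (median 0.53) lie mostly above 0. The genes of the MIR205HG list spread from -2.73 to 3.89.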

How the data were processed

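RNA-seq libraries of MCF10A cells, 2 of WT and 2 of HSF1-pLVX cells, were grouped by their titles. The authors aligned paired-end reads to hg38 with hisat2 v 2.0.5, processed them with Samtools v 1.13 and deposited counts per gene from FeatureCounts v 1.6.5 for GENCODE release 26. The strand, overlap and multi-mapping settings are not given in the sources used here. The table includes 5637 genes on alternate contigs, where copies of some genes can take or remove reads. The authors also deposited log2-like values normalized with DESeq2 v 1.32.0, and this table of 22321 rows names only DIRC3 of the 8 lncRNAs, so its values were used for DIRC3 alone. The transformation behind these values is not stated.

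Counts were tested as deposited with edgeR 4.0.16 in R 4.3.3 (TMM factors of 0.9635 to 1.04, filterByExpr with its defaults, quasi-likelihood test without a block, Benjamini-Hochberg adjustment over the 15830 genes that passed, threshold 0.05). The common biological coefficient of variation was 0.0738 and the prior degrees of freedom were 11.9. CPM are counts scaled by the TMM-corrected library size. Standard errors and 95% intervals came from the same fit. Genes were named from GENCODE 44 by Ensembl identifier (57437 of 63856), and promoter and microRNA sequences were taken from RefSeq. The fit was tested on simulated data.

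The members and gene lists were chosen with earlier results of these data known. Named genes are the 8 members, the fixed partners of each (1 is not reported here), the 2 largest rises and falls per list (4 for other lncRNAs) among called genes with at least 50 counts in each library of the higher group, the 2 nearest profiles and HSF1. In the list of other lncRNAs, 4 names annotated as protein-coding were left out. Replicates differed by more than sampling noise (chi-square per degree of freedom 7.34 in WT and 9.02 in HSF1-pLVX), so no library was counted as deposited more than once. The alternatives were other scaling factors, no filter, DESeq2 1.42.0, a replicate block and each library left out.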

Additional observations from a re-analysis of the deposited data

How the results depend on the processing

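None of the 66 recomputed log2 fold changes of the 6 tested lncRNAs turned sign, and 60 stayed on the same side of the threshold. The other 6 all belonged to KCNQ1OT1, with -0.31 under library-size scaling, -0.29 under upper quartile scaling and -0.41 under DESeq2's Wald test, and with 3 of the 4 libraries left out. With each library left out, the log2 fold change ran from 0.72 to 1.06 for NEAT1, 0.71 to 0.86 for MALAT1, 0.75 to 1.12 for PVT1, 2.75 to 3.04 for MIR205HG, -0.52 to -0.22 for KCNQ1OT1 and -0.67 to -0.32 for HOTAIR. A lone library was then assumed to vary like the other group. The number of lncRNAs called lower, 1 of 6, was 0 under library-size scaling, upper quartile scaling and DESeq2, and 0 to 1 with each library left out. The number called higher stayed at 4 in these fits. A ratio above 2 or below 0.5 in both replicate pairs of TMM-scaled CPM, added after the data were seen, left 1 higher (MIR205HG) and 0 lower. The same rule on the deposited normalized values was not run for these 7 genes, as that table does not list them by symbol, and neither was the difference of those values. Of the genes in the 9 lists, the other known lncRNAs included, 72.1% were called, and 31.8% when a 2-fold change was added. Among all tested genes 65.9% were called. With a 2-fold change added, 14.9% of all tested genes were higher and 14.0% were lower, so the lists are not set apart.

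The replicate numbers do not mark a shared culture in the labels, and same-numbered deviations had a correlation of 0.000143 over 15830 genes and -0.113 over the 9672 genes above 8 CPM. With the replicate number as a block, 5138 genes were higher and 5171 lower, against 5175 and 5253 without it, and no call of an lncRNA changed (KCNQ1OT1 -0.38, adjusted p = 0.0388). The crossed pairing gave 5429 higher and 5487 lower. With 2 libraries a group and HOTAIR at 25 to 40 counts, changes of the rarest RNAs are not resolved at this depth.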
